A study of Mus musculus with 6 samples.

Results

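The peaks described here are the 115 stretches of accessible chromatin, of 175929 in the whole table, that lay wholly inside 3 windows around the chaperone genes Hspa8, Dnajb1 and the gene pair Hspd1 and Hspe1. In mm10, the build of the deposited table, the windows were chr9:40797000-40826000 for Hspa8 with 45 peaks, chr8:83604000-83633000 for Dnajb1 with 34 peaks, and chr1:55057000-55112000 for Hspd1 and Hspe1 with 36 peaks. The loci were selected on the measured difference between oil and tamoxifen in these same libraries. The values that separate the groups, p-values of the fits included, are therefore given as a description and support nothing beyond it. ATAC-seq, in which a transposase inserts adapters into open DNA, was carried out on mouse leukaemia cells that carried the AML1/ETO 9a (AE9a) oncogene and the genotype Usp18+/f UBCER-Cre. In this genotype 1 allele of Usp18 is floxed and the ubiquitin C promoter drives a Cre recombinase that tamoxifen activates. Both groups carried all of these alleles. The leukaemia was transplanted into recipient mice, which were injected with oil or with tamoxifen once they were ill, and GFP-positive, Lin-, c-Kit+ splenocytes were sorted 3 days after the first injection. There were 3 oil libraries (replicates 1, 2 and 4) and 3 tamoxifen libraries (replicates 1, 3 and 4). The drug was given to 1 group alone, so the effect of the drug and that of losing the floxed allele cannot be told apart. The labels leave unsaid if the libraries are 1 mouse each, so the spread over libraries may be partly technical.

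The 4 genes encode chaperones, proteins that help other proteins to fold. Hspa8 encodes the constitutive cytosolic member of the HSP70 family, an ATPase that binds and releases unfolded stretches of other proteins. Dnajb1 encodes an HSP40 cochaperone whose J domain stimulates the ATPase of HSP70. Hspd1 encodes HSP60, which forms the barrel of the mitochondrial chaperonin, and Hspe1 encodes HSP10, which forms its lid. Hspd1 and Hspe1 lie head to head and share 1 bidirectional promoter region. Heat shock factor 1 drives many chaperone genes through the heat shock element (HSE), an array of short units in alternating orientation. In cells under heat or proteotoxic stress, RNA polymerase II is known to run far past the ends of some genes.

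The sequence units of the HSE are shown first. They come from a search for exact letters, which misses looser forms, and binding of heat shock factor 1 was not measured. The array searched was GAANNTTCNNGAA and its reverse complement, 3 units, on both strands. It contains the arrays of 2 units, GAANNTTC and TTCNNGAA, which were counted separately. In the highest Hspa8 promoter peak, chr9:40800729-40801265, 2 such arrays were found, 201 and 43 bp before the RefSeq start of the gene. They are printed from the plus strand with the array in capitals, the first from chr9:40801055-40801083 and the second from chr9:40801213-40801241.
Hspa8 array 1: gcgagcgtGAAAGTTCCAGAAcgccgcgg
Hspa8 array 2: cggcacccTTCTGGAAGGTTCtaagacag
In the RefSeq promoter window of Hspe1 (GRCm38.p6, which is mm10), 2 overlapping arrays formed 1 run of alternating units, printed in capitals from the plus strand of chr1:55088053-55088082.
Hspd1-Hspe1 array: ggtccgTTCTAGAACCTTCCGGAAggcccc
This run ended 72 bp before the RefSeq start of Hspe1 and 40 bp before the promoter peak that both genes shared. It lies within the RefSeq extent of Hspd1, which starts at 55088243 and runs the other way. The RefSeq promoter window of Hspd1 from 55088194 held 0 arrays of 3 units, and that from 55087883 held 2. No array of 3 units lay in either RefSeq promoter window of Dnajb1. Of the 200 bases before its earliest RefSeq start, chr8:83607975-83608174, printed next from the plus strand, the capitals mark a GC box (GGGCGG or its reverse complement) and a CCAAT box (CCAAT or its reverse complement).
Dnajb1 promoter: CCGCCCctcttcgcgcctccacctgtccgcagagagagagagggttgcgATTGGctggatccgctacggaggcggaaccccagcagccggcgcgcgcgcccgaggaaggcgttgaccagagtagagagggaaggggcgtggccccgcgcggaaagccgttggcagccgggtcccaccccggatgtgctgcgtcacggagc
Among all 32851 RefSeq promoter windows, 0.603% held an array of 3 units, 35.7% a GC box and 37.4% a CCAAT box.

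The other sequences show what the peaks past the gene ends consist of. For Dnajb1, Hspa8 and Hspe1 the middle 120 bases of the downstream peak with the smallest adjusted p are printed from the plus strand, chr8:83619583-83619702, chr9:40821635-40821754 and chr1:55098733-55098852, with each CpG in capitals.
Dnajb1 downstream: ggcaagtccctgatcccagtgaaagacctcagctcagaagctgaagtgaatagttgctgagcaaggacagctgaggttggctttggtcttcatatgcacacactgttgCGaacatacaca
Hspa8 downstream: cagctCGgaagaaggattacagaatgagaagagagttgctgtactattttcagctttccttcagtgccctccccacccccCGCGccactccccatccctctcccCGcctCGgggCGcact
Hspe1 downstream: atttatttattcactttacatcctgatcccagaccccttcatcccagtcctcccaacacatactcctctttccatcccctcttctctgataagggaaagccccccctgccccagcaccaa
They held 1, 6 and 0 CpGs, against 24 in the 200 bases of the Dnajb1 promoter. Over the middle 250 bases, the 86 downstream peaks of the 4 genes had a median of 2 CpGs and a GC content of 46.4%, against 3 CpGs and 50.4% over all peaks whose sequence could be read. The promoter peaks of Dnajb1 had a median of 30.5 CpGs and that of Hspd1 and Hspe1 held 32. An array of 3 units lay within the middle 250 bases of 1 of the 115 peaks, the highest Hspa8 promoter peak, and of 0.377% of all peaks. None (0) of the 86 downstream peaks held one there, which says only that these letters were not in these windows. In the reference, 33.2% of the bases in the middle of the downstream peaks were marked as repeats on average, against 19.9% in all distal peaks, those over 3000 bp from a transcription start site (TSS). Of the 4 genes Hspe1 had the highest such share, 49.97% over its 12 downstream peaks.

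Total tags per library, the read ends counted by the authors, ran from 57.4 M to 74.7 M, and 28.2 to 30.5% of them lay in peaks. Values below are normalised tags, that is tags divided by the DESeq2 size factor of the library, and the median peak held 49.98 of them in oil. The peaks nearest the TSSs of Kit, Spi1, Cebpa, Mpo and Myb, markers of the sorted progenitors, summed to 1812 to 1887 normalised tags in oil and 1792 to 1962 in tamoxifen. The groups overlapped at Kit, Spi1, Mpo and Myb. At Cebpa the peak was higher in tamoxifen, with 153, 135.5 and 159 in oil 1, 2 and 4 and 186, 195 and 176 in tamoxifen 1, 3 and 4. Of the markers of other cells, a TSS peak was found for 2 of 4 T cell genes, 2 of 3 B cell genes and 1 of 3 mature myeloid genes, with sums under 170 in every library. Not all genes of other lineages were so low. The TSS peak of Klf1, an erythroid transcription factor, measured 342, 314 and 322 in oil 1, 2 and 4 and 287, 248 and 312 in tamoxifen 1, 3 and 4, and that of the globin gene Hbb-bt 47.4, 57.5 and 52.4 in oil and 93.8, 133 and 33.5 in tamoxifen. The part of other cells in the values below was not tested. At the Usp18 promoter the log2 change was 0.035 (SE 0.10), and none (0) of its 15 peaks passed an adjusted p under 0.05 in DESeq2 or in edgeR, or an unadjusted p under 0.05. A peak outside the floxed exon does not check the deletion.

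Over the 3 windows together, the tamoxifen libraries held fewer tags, and the difference lay in the gene bodies and past the gene ends more than at the promoters. Tags summed over the 115 peaks were 23723, 23901 and 28955 in oil 1, 2 and 4 and 16215, 19825 and 21190 in tamoxifen 1, 3 and 4. No tamoxifen library reached the lowest oil library, and the ratio of the means was 0.747, a log2 change of -0.42. The 86 downstream peaks summed to 16366 ± 2467 (SD, n = 3) in oil and 11000 ± 2157 in tamoxifen, and the 19 gene body peaks to 3210 ± 545 and 2355 ± 408. The 6 promoter peaks, those centred within 1000 bp of a gene start, summed to 5473 ± 111 in oil and 5269 ± 359 in tamoxifen. The groups overlapped there, as they did in the 4 peaks upstream, with 477 ± 26.1 in oil and 453 ± 11.3 in tamoxifen. In bulk chromatin, fewer cells with an open region and a less open region in each cell cannot be told apart.

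Described by the fit of all peaks, 25 of the 115 peaks passed an adjusted p under 0.05, all of them lower in tamoxifen, against 0.167% of all peaks that passed in this direction and 1.22% that passed with tamoxifen higher. None (0) of the 115 was higher at an adjusted or an unadjusted p under 0.05, or in edgeR. At a fold change over 2 as well, 2 of the 115 passed, both downstream of Hspe1, against 0.0659% of all peaks in this direction. All 3 tamoxifen libraries lay below all 3 oil libraries in 56 of the 115 peaks, against 10.0% of all peaks, and above them in 0, against 11.9%. The tamoxifen mean was the lower in 110, against 50.3%. As the loci were selected on this contrast, nothing is read from these shares.

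**Figure D1:**
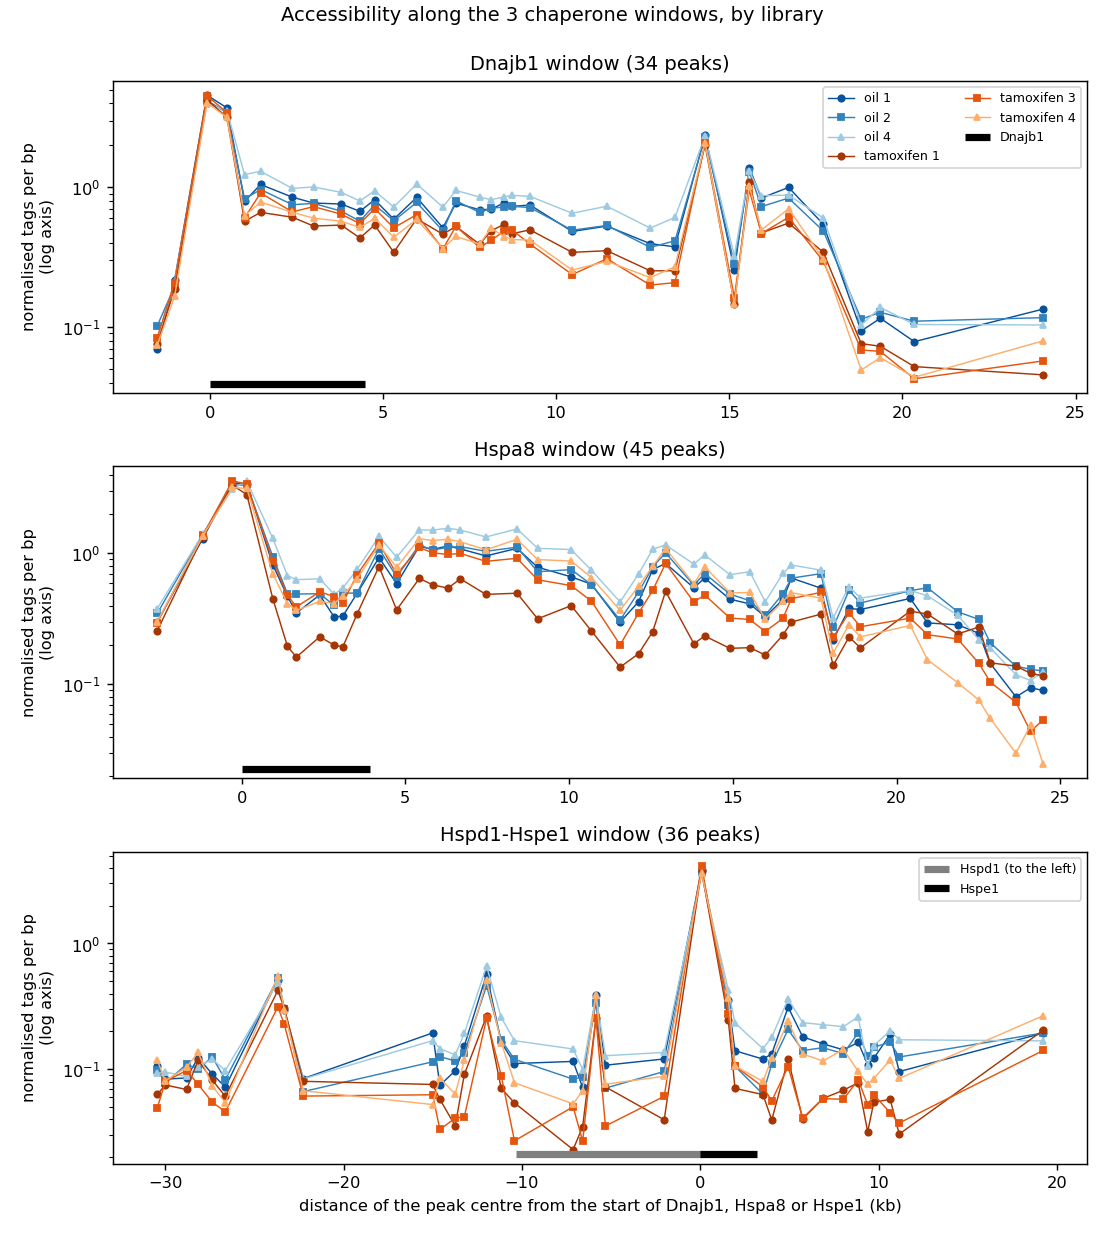
Normalised tags per bp (log axis) of each peak in each of the 6 libraries, against the distance in kb of the peak centre from the start of Dnajb1 or Hspa8, or of Hspe1 in the window it shares with Hspd1. Blue symbols are oil libraries, orange and brown ones tamoxifen libraries, and bars at the foot mark the genes. At the promoters the 6 libraries lie together, and past the gene ends the tamoxifen libraries lie lower, with tamoxifen 1 lowest along much of the Hspa8 window.

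Hspa8 lies on the plus strand of chromosome 9 from 40801276 to 40805202 in RefSeq. It had the promoter peak with the most tags and the longest run of downstream peaks. Per bp Hspa8 held less there in oil, 3.30 normalised tags in a peak of 537 bp, against 4.25 at Dnajb1 and 3.70 at Hspd1 and Hspe1. Its promoter peak at chr9:40800729-40801265, which holds both arrays printed above, measured 1853, 1791 and 1670 normalised tags in oil 1, 2 and 4 and 1784, 1931 and 1714 in tamoxifen 1, 3 and 4. The groups overlapped and the log2 change was 0.03 (SE 0.07). The peak nearest the TSS, chr9:40801289-40801584 in intron 1, measured 1008, 981 and 1055 in oil and 832, 996 and 927 in tamoxifen, a log2 change of -0.15 (SE 0.08). Tamoxifen 1 and tamoxifen 4 lay below all the oil libraries there and tamoxifen 3 did not. The third promoter peak, chr9:40802057-40802404 in intron 2, differed from the others, with 285, 328 and 453 in oil and 157, 305 and 243 in tamoxifen and a log2 change of -0.60 (SE 0.33). It lies 954 bp past the start, just inside the limit for a promoter peak, and the groups overlapped. The higher of 2 upstream peaks, chr9:40799972-40800199, was nearly level, with 295, 317 and 320 in oil and 306, 310 and 309 in tamoxifen. Among the 6 gene body peaks the highest by oil mean, chr9:40804678-40804929 in the last intron, which also holds the small nucleolar RNA gene Snord14e, measured 125.2, 125.8 and 190.4 in oil and 87.0, 173 and 161 in tamoxifen. The groups overlapped in all 6 of these peaks, and tamoxifen 1 was the lowest of the 6 libraries in this one.

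Past the annotated end of Hspa8, 34 peaks followed each other over about 20 kb and covered 62.9% of the first 21 kb of sequence, where all peaks together cover 1.83% of the genome. GENCODE M21, a second annotation, extends Hspa8 farther than RefSeq does, so the first of these peaks lie inside that longer model. The highest downstream peak, chr9:40808233-40809241, measured 966, 1048 and 1348 in oil and 491, 879 and 1076 in tamoxifen, a log2 change of -0.46 (SE 0.35). Oil 4 was highest, tamoxifen 1 was lowest, and tamoxifen 4 lay above both oil 1 and oil 2. The log2 change of this peak was -0.20 without tamoxifen 1, -0.30 without oil 4 and -0.71 without tamoxifen 4. In the first 5 kb past the end, tamoxifen 1 held 47.1% of the oil mean, tamoxifen 3 held 81.7% and tamoxifen 4 held 101%. From 5 to 10 kb the shares were 38.8%, 68.2% and 101% in the same order.

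Farther out the order of the tamoxifen libraries turned. From 15 to 20 kb past the end of Hspa8, tamoxifen 1 held 78.6% of the oil mean, tamoxifen 3 held 63.5% and tamoxifen 4 held 42.4%. In the gene body and the first stretch past the end, 26 peaks in all, tamoxifen 1 was the lowest tamoxifen library in 26 and oil 4 the highest oil library in 26, a stretch delimited after its values were seen. In the 8 peaks from 16 kb on, tamoxifen 1 was the highest of the tamoxifen libraries in 8 and tamoxifen 4 the lowest in 7. The 5 of 45 Hspa8 peaks that passed an adjusted p under 0.05, against 0.167% of all peaks in this direction, lay between 12.9 and 16.5 kb past the end. Of these, chr9:40820012-40820336 measured 121, 136 and 148 in oil and 61.9, 89.7 and 74.96 in tamoxifen, a log2 change of -0.86 (SE 0.20). The peak chr9:40821305-40822086, which overlaps the unspliced GENCODE gene model Gm48565, measured 355, 406 and 408 in oil and 284, 251 and 221 in tamoxifen, a log2 change of -0.63 (SE 0.12). In both, all 3 tamoxifen libraries lay below all 3 oil libraries. Summed over the 45 peaks of the window the groups overlapped, since tamoxifen 4 with 12305 lay above oil 1 with 12045. The log2 change of this sum was -0.37, and -0.20 without tamoxifen 1.

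**Figure D2:**
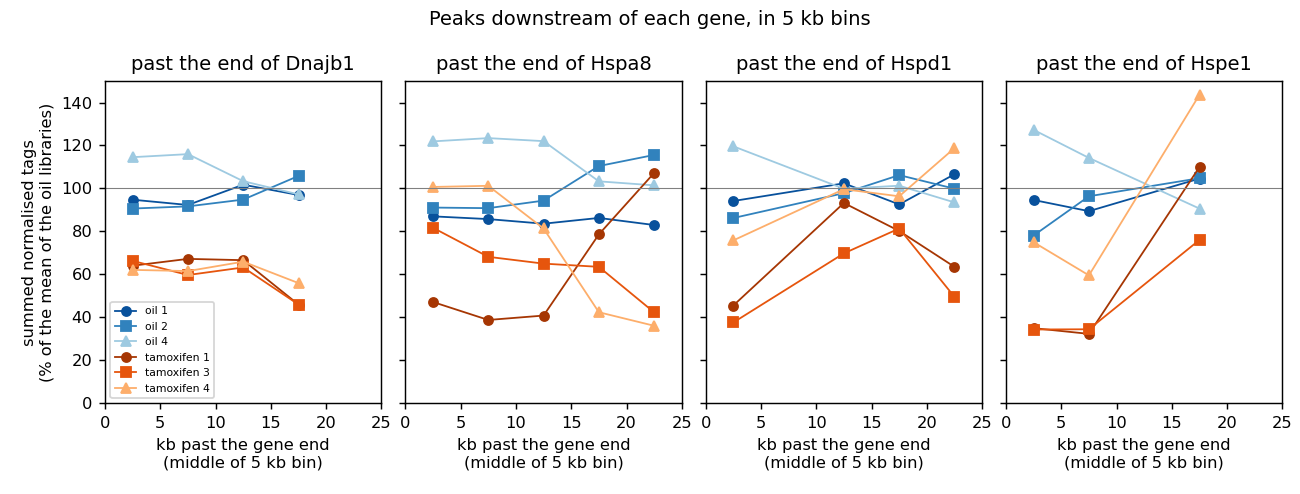
Summed normalised tags in 5 kb bins past the end of each gene, as a percentage of the mean of the 3 oil libraries, for each of the 6 libraries. Each point is 1 library in 1 bin, placed at the middle of the bin, and bins with no peak are left out. Past Dnajb1 the 3 tamoxifen libraries run together between 45.9 and 67.2%. Past Hspa8 tamoxifen 1 goes from 47.1 to 38.8% and then up to 107%, and tamoxifen 4 goes from 101 to 36.1%. The last Hspa8 bin rests on 2 weak peaks with 65.8 tags together in oil.

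Dnajb1, on the plus strand of chromosome 8 from 83608175 to 83612653, was the locus at which the 3 tamoxifen libraries differed least from each other. Its promoter peak at chr8:83607995-83608195 measured 920, 842 and 800 in oil 1, 2 and 4 and 853, 913 and 810 in tamoxifen 1, 3 and 4. The groups overlapped and the log2 change was 0.01 (SE 0.08). The next peak, chr8:83608570-83608773 in the first exon of a second RefSeq transcript, had a log2 change of -0.13 (SE 0.08). It measured 758.4, 700.6 and 723.9 in oil and 649.1, 700.3 and 647.1 in tamoxifen, so the groups did not overlap, by a narrow margin. The higher of the 2 upstream peaks, chr8:83607049-83607270, measured 48.0, 43.4 and 47.5 in oil and 41.6, 46.2 and 36.8 in tamoxifen. It holds 2 arrays of 2 units in the outward order, TTCNNGAA, at 83607181 and 83607236. The promoter peak chr8:83608570-83608773 holds an array in the inward order, GAANNTTC, at 83608727. In downstream peaks of Dnajb1 the outward order occurs at 83612791 and 83619893. Counted in the middle of each peak alone, 6.09% of the 115 peaks held the outward order and 5.22% the inward order. Over all peaks whose sequence could be read, these shares were 6.15% and 5.19%.

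Inside the gene the difference was smaller than past its end. The highest gene body peak, chr8:83610790-83611554 in the last exon, measured 591, 588 and 771 in oil and 405, 557 and 461 in tamoxifen, a log2 change of -0.46 (SE 0.19). All 3 tamoxifen libraries lay below all 3 oil libraries in this peak and in the other 5 of the gene body. Summed over these 6 peaks, tamoxifen 1, 3 and 4 held 64.5%, 80.8% and 72.1% of the oil mean. Downstream the corresponding shares were 65.3%, 63.5% and 62.6% over 24 peaks. The groups did not overlap in any of the 24, and 16 of them passed an adjusted p under 0.05, beside 2 in the gene body. Over all peaks, 10.0% had all tamoxifen libraries below all oil libraries and 0.167% passed as lower. The locus was selected on this contrast, so nothing is read from these counts.

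The highest downstream peak of Dnajb1, chr8:83613816-83614484, measured 568, 522 and 708 in oil and 399, 427 and 395 in tamoxifen, a log2 change of -0.56 (SE 0.11). The widest, chr8:83619218-83620068, whose middle is printed above, measured 450, 454 and 624 in oil and 300, 262 and 251 in tamoxifen, a log2 change of -0.91 (SE 0.13). Both are intergenic, and in both oil 4 stood above the other oil libraries by more than they differed from each other. The other named peaks, chosen as those with the smallest adjusted p in the 3 windows, lay between 2.63 and 13.2 kb past the end, with log2 changes of -0.75 to -0.97. The peak chr8:83615846-83616088 measured 168, 161 and 207 in oil and 95.2, 90.3 and 95.4 in tamoxifen. The peak chr8:83618349-83618932 measured 282, 288 and 381 in oil and 200, 139 and 149 in tamoxifen, the largest difference of these with a log2 change of -0.97 (SE 0.16).

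Not every downstream peak of Dnajb1 differed alike. The sharpest of them, chr8:83622376-83622581, measured 488, 471 and 483 in oil and 416, 432 and 430 in tamoxifen, a log2 change of -0.17 (SE 0.10), while its neighbours at chr8:83621479-83621738 and chr8:83623156-83623491 both had log2 changes near -0.94 (SE 0.23). Per bp this peak held 2.33 normalised tags in oil, more than 96.7% of all peaks, and it was singled out after its values were seen. Another of the higher ones, chr8:83623644-83623864, had a log2 change of -0.37 (SE 0.12). In both, the tamoxifen libraries still lay below all the oil libraries. In 5 kb bins the ratio of the tamoxifen mean to the oil mean was 0.642, 0.628, 0.653 and 0.493 from the gene end outwards, the last bin resting on 2 weak peaks with 55.7 tags together in oil.

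**Figure D3:**
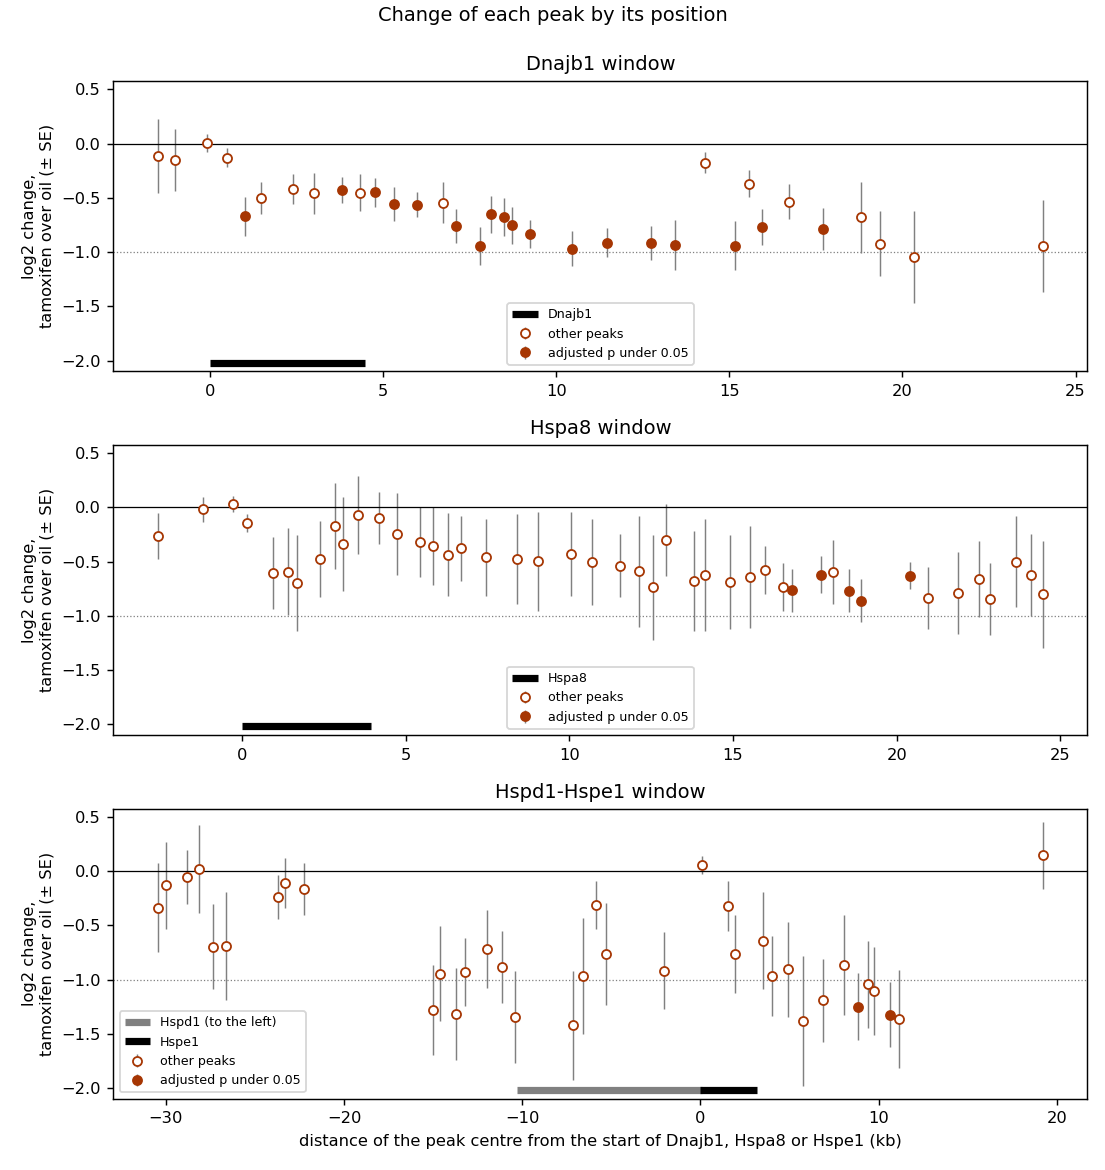
Log2 change of each peak, tamoxifen over oil, with its SE from the DESeq2 fit of all peaks, against the distance in kb of the peak centre from the start of Dnajb1 or Hspa8, or of Hspe1 in the shared window. Filled points passed an adjusted p under 0.05, the dotted line marks a fold change of 2, and bars at the foot mark the genes. The 5 promoter peaks nearest the gene starts lie between -0.15 and 0.06 and the sixth, in intron 2 of Hspa8, at -0.60, and the filled points lie within and past Dnajb1 and past Hspa8 and Hspe1.

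Hspd1 runs on the minus strand of chromosome 1 from 55088243 down to 55077833, and Hspe1 on the plus strand from 55088148 to 55091317. The 1 promoter peak they share, chr1:55088116-55088318, is the nearest peak to both TSSs and measured 778, 757 and 718 in oil 1, 2 and 4 and 770, 837 and 740 in tamoxifen 1, 3 and 4. The groups overlapped and the log2 change was 0.06 (SE 0.08). Away from this peak the levels were low, with oil means of 17.4 to 242 in the other 35 peaks. Of the 36 peaks in the window, 23 were called by the authors in the oil group alone and 1 in the tamoxifen group alone. Over all peaks these shares were 17.4% and 11.2%. Whether a peak was called in a group follows from its level there, so that these counts are no separate evidence.

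Past the end of Hspe1 the difference was the largest of the 4 genes. Its 12 downstream peaks summed to 830, 746 and 1081 in oil 1, 2 and 4 and 333, 321 and 654 in tamoxifen 1, 3 and 4, a log2 change of -1.02. Tamoxifen 1 and 3 were close to each other, and tamoxifen 4 lay between them and the oil libraries. The broadest and highest of these peaks, chr1:55094347-55095705, measured 217, 202 and 307 in oil and 79.7, 79.7 and 158 in tamoxifen, a log2 change of -1.19 (SE 0.38). It did not pass an adjusted p under 0.05, although the groups did not overlap. The peak chr1:55098572-55099014, whose middle is printed above, measured 83.8, 72.7 and 89.6 in oil and 25.6, 20.1 and 52.6 in tamoxifen, a log2 change of -1.32 (SE 0.30). The peak chr1:55096857-55097146 measured 47.4, 56.6 and 75.7 in oil and 22.7, 23.95 and 27.9 in tamoxifen, a log2 change of -1.25 (SE 0.31). These are the 2 peaks of the 3 windows past a fold change of 2 at an adjusted p under 0.05, and neither had been called in the tamoxifen group. No peak followed between 8 and 16 kb past the end, and the 1 beyond it had a log2 change of 0.15 (SE 0.31).

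On the Hspd1 side the pattern was the same in direction and weaker in the fit. The 5 gene body peaks summed to 210, 175 and 231 in oil and 110, 113 and 176 in tamoxifen. The highest of them, chr1:55082167-55082429 in intron 5, measured 103, 88.7 and 102 in oil and 67.7, 66.9 and 102 in tamoxifen, with tamoxifen 4 at the level of the oil libraries. Its log2 change was -0.31 (SE 0.22), -0.54 without tamoxifen 4, and -0.20 without tamoxifen 1 or without tamoxifen 3. The 7 peaks between the end of Hspd1 and the neighbouring gene Coq10b summed to 396, 363 and 503 in oil and 191, 158 and 319 in tamoxifen, a log2 change of -0.92. In the 9 peaks inside introns of Coq10b, which encodes a protein of coenzyme Q metabolism and runs towards Hspd1, the sums were 438, 446 and 442 in oil and 384, 321 and 440 in tamoxifen, a log2 change of -0.21. The groups overlapped inside Coq10b and did not overlap between the genes. None (0) of the 21 peaks of Hspd1 passed an adjusted p under 0.05 in DESeq2, 9 did at an unadjusted p under 0.05, and 4 passed in edgeR. Of all 175929 peaks, 4988 were lower at an unadjusted p under 0.05 and 917 passed as lower in edgeR.

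**Figure D4:**
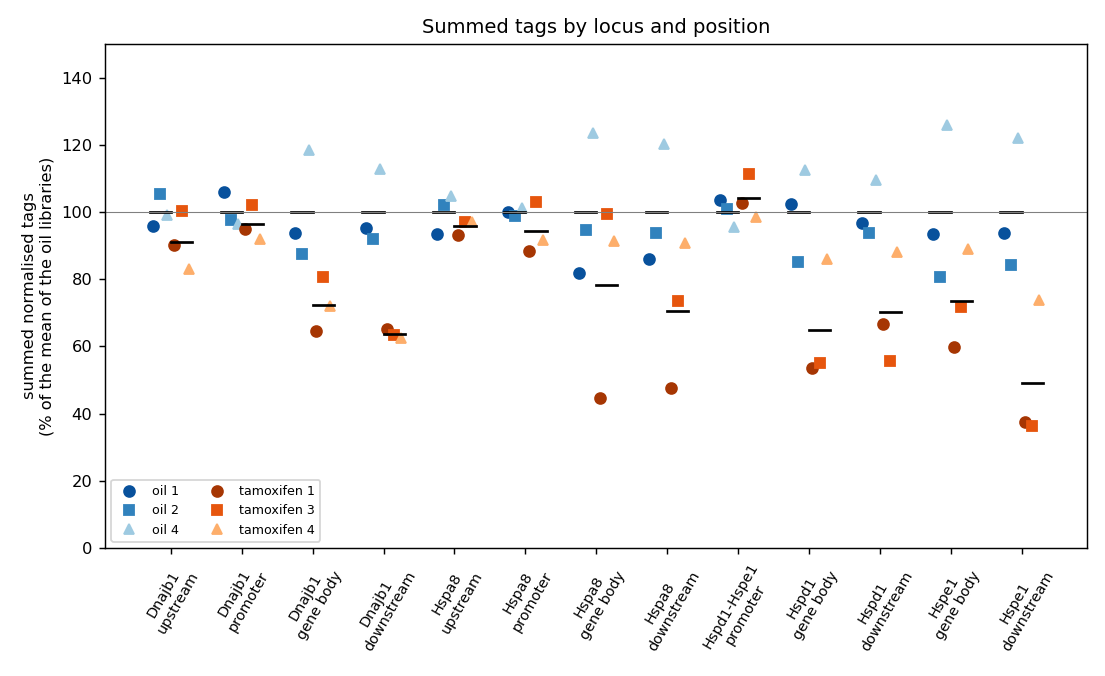
Normalised tags summed over the peaks of each locus and position class, as a percentage of the mean of the 3 oil libraries. Each symbol is 1 library, and the short black lines are the group means. The promoter sums lie between 88.3 and 111% in the tamoxifen libraries, while the downstream sums lie between 36.2 and 90.7%, with tamoxifen 4 the nearest to oil at Hspa8, Hspd1 and Hspe1.

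In each window oil 4 was more often the highest oil library than oil 1 or 2, while the order of the tamoxifen libraries varied between windows. Oil 4, the deepest library, was the highest oil library in 85 of the 115 peaks (73.9%), against 35.0% of all peaks. Its summed tags were 131% of the mean of the other oil libraries in the gene body of Dnajb1, 140% in that of Hspa8 and 137% downstream of Hspe1, but 94.6% in the Dnajb1 promoter peaks. Tamoxifen 4 was the highest tamoxifen library in 29 of 36 peaks of the Hspd1 and Hspe1 window and in 23 of 45 of the Hspa8 window, but in 7 of 34 of the Dnajb1 window, against 36.3% of all peaks. Tamoxifen 1 was the lowest tamoxifen library in 36 of 45 peaks at Hspa8, against 29.5% of all peaks. Peaks of 1 locus are neighbours on the same molecules and do not count as separate observations of a library.

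Without oil 4, the count of peaks at an adjusted p under 0.05 went from 25 to 6, and without tamoxifen 4 it went to 36, of which 14 lay in the Hspd1 and Hspe1 window. Over all peaks the count in this direction went from 294 to 70 and to 2554 in the same 2 fits. The median log2 change over the 115 peaks was -0.63 with all libraries, -0.45 without oil 4 and -0.71 without tamoxifen 4, beside 0.00 over all peaks in each of these fits to within 0.01.

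Of the 6 promoter peaks, 5 also stood near the top of the table in density. They held 3.30 to 4.25 normalised tags per bp in oil, above 99.25 to 99.97% of all peaks, where the median peak held 0.169. The sixth, in intron 2 of Hspa8, held 1.02. The authors counted at most 3 tags per position, a limit that bears on such dense peaks first, and its part in the level promoter values was not tested. Past the gene ends the densest peaks held 1.27 tags per bp at Hspa8 and 2.33 at Dnajb1.

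At the edges of the windows the oil means lay below the 49.98 of the median peak, except in the first peak inside the upstream edge of Hspa8. The last peak inside the Hspa8 window, chr9:40825650-40825857, measured 23.7 ± 4.28 in oil and 13.5 ± 9.73 in tamoxifen (SD, n = 3 each), and the first beyond it, chr9:40826177-40826552, measured 32.8 ± 7.06 and 22.8 ± 13.9. On the upstream side of Hspa8 the first peak inside measured 88.7 ± 10.2 and 73.9 ± 6.30, and the nearest outside 25.2 ± 4.95 and 15.3 ± 3.62. At Dnajb1 the last peak inside, chr8:83632124-83632357, measured 27.6 ± 3.64 and 14.2 ± 4.06, and the first beyond, chr8:83637398-83637747, 28.8 ± 2.94 and 19.0 ± 2.31. Upstream of Dnajb1 the first peak inside measured 31.5 ± 6.25 and 29.4 ± 2.06, and the nearest outside 40.9 ± 1.65 and 38.2 ± 5.64. The Hspd1 and Hspe1 window began inside Coq10b, with 25.9 ± 1.69 and 20.0 ± 9.47 inside and 44.6 ± 9.24 and 38.4 ± 13.4 outside, and ended with 39.5 ± 3.21 and 43.5 ± 13.4 inside and 37.6 ± 7.79 and 30.7 ± 3.97 outside. At Hspa8 and Dnajb1 the tamoxifen mean was thus the lower on both sides of the downstream edge and of the upstream edge. At Hspd1 and Hspe1 it was the lower in all but the last peak inside. In the 30 kb beyond the edges the median log2 change was -0.16 over 27 peaks at Dnajb1, -0.47 over 9 at Hspa8 and -0.16 over 21 at Hspd1 and Hspe1, and 1 of these 57 peaks passed an adjusted p under 0.05.

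The wider chaperone system was described from a list of 60 genes, of which 58 had a peak within 100000 bp of the TSS outside the 3 windows, 588 peaks in all. At an adjusted p under 0.05, 51 of these peaks were lower in tamoxifen and 3 higher, with a median log2 change of -0.13, against 0.167% and 1.22% and a median of 0.00 over all peaks. The lower peaks were concentrated at 3 genes. Hsph1, which encodes the HSP110 that exchanges the nucleotide of HSP70, had 33 of them among its 72 peaks. The stress-inducible HSP70 genes Hspa1b and Hspa1a had 10 of 15 and 6 of 12, and since they are nearly identical copies that lie side by side, their reads may have been split between them. The remaining 2 lay at Hsp90ab1, a cytosolic HSP90, and at Dnajb4, another HSP40.

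For Hsph1 the tags summed over its peaks were 6169, 5877 and 8257 in oil 1, 2 and 4 and 3065, 3233 and 4177 in tamoxifen 1, 3 and 4. Hspa1a summed to 1328, 1302 and 1952 in oil and 446, 502 and 930 in tamoxifen. In both, oil 4 was the highest oil library and tamoxifen 4 the highest tamoxifen library, as at Hspe1. Of the 61 peaks of mitochondrial chaperones and proteases, the group closest in function to Hspd1 and Hspe1, none (0) passed an adjusted p under 0.05 in DESeq2, 2 lower and 1 higher did at an unadjusted p under 0.05, and 1 lower passed in edgeR. None (0) of the 70 peaks of small heat shock proteins and of the cytosolic chaperonin was lower at that threshold and 1 was higher, near Cct2. In these 70, 1 lower and 3 higher peaks had an unadjusted p under 0.05, and edgeR gave 0 lower and 1 higher. The 11 peaks of the heat shock factors Hsf1, Hsf2 and Hsf4 gave 0 in either direction in DESeq2 and edgeR, and 0 at an unadjusted p under 0.05. The other 2 higher peaks of the list lay near Fkbp5 and Dnaja1. Of all 175929 peaks, 4988 were lower and 10880 higher at an unadjusted p under 0.05, and 917 lower and 4219 higher passed in edgeR.

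The genes whose summed tags followed the 115 peaks most closely over the 6 libraries were sought among 15102 genes with no peak in the windows. Likeness was the root mean square difference of log2 values, each centred on its mean. Hsp90ab1 was the most alike, with a difference of 0.09 where the median gene had 0.27. Its 17 peaks summed to 4749, 4690 and 5205 in oil and 3540, 3917 and 4469 in tamoxifen. It was followed by the gene model C130083M11Rik, the microRNA gene Mir31, the zinc transporter gene Slc30a8 and the fatty acyl-CoA reductase gene Far2, with differences of 0.09 to 0.10. In all 5, as in the 115 peaks, oil 4 was the highest and tamoxifen 1 the lowest of the 6 libraries. The genes were ranked on the values of these same libraries, so this shared order follows from the ranking and is no separate evidence.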

How the data were processed

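Bowtie2 alignment to mm10 and HOMER peak calling were done by the authors, who merged the peak lists of both groups. The deposited values are raw tags, an estimated count in steps of 0.5 (each mate of a pair counts 0.5) with at most 3 tags per position. Versions are not given in the sources used here.

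Tags were rounded to whole numbers and fitted over all 175929 peaks with DESeq2 1.42.0 (R 4.3.3, Wald test, Benjamini-Hochberg). Alternatives used other size factors, edgeR 4.0.16, filters, separate fits and fewer libraries. The DESeq2 and edgeR fits were tested on simulated data, and the other steps were not. The fit covered distal and promoter peaks together, whereas the study fitted distal peaks alone.

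Named were the peak nearest each TSS, the highest peak by oil mean per position class and locus, and the 16 window peaks with the smallest adjusted p. A few other peaks were singled out after their values were seen. A peak was assigned to a gene by its nearest TSS within 100000 bp. The genes, lists, rules and alternatives were chosen with earlier results of these data known. The replicate numbers 1 and 4 occur in both groups, but deviations of same-numbered libraries from their group means correlated at r = -0.04 and 0.05 over all peaks, so the numbers were not treated as pairs. All adjusted p-values come from DESeq2 unless edgeR is named. The sum over 1 list of marker genes is not reported here.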

Additional observations from a re-analysis of the deposited data

How the results depend on the processing

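The count of peaks past a fold change of 2 at an adjusted p under 0.05 was 2 in the 3 windows and stayed at 2 with the other size factors, the filter on low tags and the separate fits. It was 10 with edgeR, 4 at an adjusted p under 0.1, 25 with no limit on the fold change, and 0 to 16 when 1 library was left out. At an adjusted p under 0.05 alone the count of 25 became 38 with edgeR and 6 to 36 with 1 library left out. In edgeR, 249 of all 175929 peaks were lower at both limits and 917 at the adjusted p alone. With the replicate block on numbers 1 and 4, which leaves 4 libraries, both counts were 0, and 34 lower and 22 higher peaks passed in the whole table. At an unadjusted p under 0.05, 59 of the 115 peaks were lower in the fit of 6 libraries, against 4988 of all 175929 peaks. The numbers were not shown to pair the libraries, so a call lost under the block is no weaker effect. The summed tags of each window kept their direction in all alternatives run, from -0.20 to -0.73 on the log2 scale for single windows. The count of 51 lower peaks of the chaperone list was 19 to 89 with 1 library left out and 16 with the replicate block, alternatives that were chosen after seeing the data. Of the named peaks, only ones near 0 changed sign. The Dnajb1 promoter peak gave -0.005 with size factors from tags in peaks and -0.048 with the replicate block, and -0.038 to 0.064 with 1 library left out. The Hspa8 upstream peak gave 0.002 in separate fits and -0.050 to 0.005 with 1 library left out, the Hspa8 promoter peak -0.012 with the block and -0.018 to 0.070 with 1 library left out, and the Hspa8 gene body peak -0.247 to 0.180 with 1 library left out. The cause of these changes was not tested. The median SE of the log2 change was 0.17 in the Dnajb1 window, 0.35 in the Hspa8 window and 0.39 in the Hspd1 and Hspe1 window, where the median peak held 194, 165 and 42.8 normalised tags in oil.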
